A study of Mus musculus with 19 samples.

Results

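Tktl1, Taf7l, Tex101, Tex16, Slc25a31 and Ccnb3 are 6 mouse genes known to be expressed in the testis. They were followed here through the development of the ovary. They are 6 of the 18193 genes that had a probe set of their own on the array, and they were chosen by their measured signals, which in earlier results of these data were high at gestation day (gd) 14 and low at postnatal day (pnd) 2. The level at gd14 relative to gd12 and at pnd2 relative to gd14 is therefore given as a description, with no test. No testis sample was analysed here, so their expression in the testis is background. The genes were measured by 8 probe sets. Tktl1 had 3 of them, and the one with the highest mean over the ovary arrays stands for the gene.

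Whole ovaries of wild-type female CD-1 mice, an outbred strain, were taken without treatment at gd11, gd12, gd14, gd16, gd18 and pnd2, with 3 arrays per stage and 18 in all. Samples of gd11, gd12 and gd14 are labelled as pools of 3 and later ones as not pooled, although the series text describes each sample as 1 animal's pair of ovaries. Dams differed according to that text, except that gd11 samples 18 and 19 shared a dam. At gd11, samples 16 and 18 are labelled gonad with mesonephros, the embryonic kidney beside it, and sample 19 gonad alone. A further array held RNA of whole newborns at pnd 0.5, pooled from 8 animals of both sexes. It has no replicate.

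Germ cells of the ovary enter meiosis before birth, pair their chromosomes during fetal life and then come to rest in late prophase around birth, whereas those of the testis enter meiosis only after birth. Many genes of meiotic prophase are therefore active in the fetal ovary and later in the testis. Taf7l encodes a germ cell relative of TAF7, a subunit of the general transcription factor TFIID. Tktl1 encodes a relative of transketolase, an enzyme of the pentose phosphate pathway, and Slc25a31 the germ cell carrier that exchanges ADP and ATP across the inner mitochondrial membrane. Ccnb3 encodes a B-type cyclin that mouse oocytes need to leave the first meiotic division. Tex101 encodes a lipid-anchored surface protein of germ cells, of the LY6 family, which mouse sperm need for fertility. No function is given here for Tex16, which was named for its expression in the testis.

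In build GRCm38.p6, 4 of the 6 genes lie on chromosome X. Ccnb3 spans chrX:6979652-7041635, Tktl1 chrX:74177259-74208498, Tex16 chrX:111896766-112127326 and Taf7l chrX:134460116-134476505. Tex101 lies at chr7:24668012-24672050 and Slc25a31 at chr3:40708871-40726094.

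All 6 genes matched a promoter window of RefSeq (GRCm38.p6), which runs from 250 bases before to 50 bases after the annotated start. Of the 4 windows that hold a searched motif, 3 are shown, those with CACGTG and the one with CCAAT in 4 places, and each is printed up to base 30 after the start. Capitals in Taf7l and Slc25a31 mark CACGTG, the E-box read by basic helix-loop-helix factors, and, in Slc25a31 only, TCCCGC. Capitals in Tex101 mark CCAAT or its reverse complement ATTGG, the letters read by nuclear factor Y. The Taf7l window is chrX:134476461-134476740 (minus strand), that of Slc25a31 chr3:40708621-40708900 (plus strand) and that of Tex101 chr7:24672021-24672300 (minus strand).
Taf7l: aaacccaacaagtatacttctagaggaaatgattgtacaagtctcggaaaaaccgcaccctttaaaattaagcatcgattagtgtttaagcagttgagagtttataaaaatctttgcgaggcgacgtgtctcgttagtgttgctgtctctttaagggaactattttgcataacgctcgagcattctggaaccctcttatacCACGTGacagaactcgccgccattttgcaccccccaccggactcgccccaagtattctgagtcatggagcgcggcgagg
Slc25a31: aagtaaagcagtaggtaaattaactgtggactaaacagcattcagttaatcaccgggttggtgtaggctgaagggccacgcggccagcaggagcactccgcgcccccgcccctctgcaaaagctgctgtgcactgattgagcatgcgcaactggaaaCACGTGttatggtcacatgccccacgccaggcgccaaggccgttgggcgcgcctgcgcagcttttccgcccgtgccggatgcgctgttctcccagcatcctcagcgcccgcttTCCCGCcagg
Tex101: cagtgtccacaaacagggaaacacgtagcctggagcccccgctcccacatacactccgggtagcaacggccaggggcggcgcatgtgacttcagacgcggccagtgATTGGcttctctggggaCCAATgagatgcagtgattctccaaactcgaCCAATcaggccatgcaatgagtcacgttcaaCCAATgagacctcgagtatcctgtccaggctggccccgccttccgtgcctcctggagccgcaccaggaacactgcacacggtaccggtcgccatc

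Both strands were searched for 4 motifs in the 6 windows and in all 32851 windows of the table. CACGTG was found in 2 of the 6 windows, 49 bases before the start of Taf7l and 93 bases before that of Slc25a31, and in 7.15% of all windows. TCCCGC was found in 1 of the 6, at base 21 after the start of Slc25a31, and in 20.0% of all windows. CCAAT was found in Tex101 in 4 places, 144, 127, 96 and 65 bases before the start, in Tex16 once, and in 37.4% of all windows. CNCCTCAG, letters reported for the mouse meiosis factor STRA8, was in none of the 6 windows and in 7.94% of all. No motif of the 4 overlapped another in the printed windows. A match is a description of these letters and not a sign that a factor binds there.

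CpG, the dinucleotide that carries DNA methylation, was counted in the windows. Slc25a31 held 22 CpGs in 300 bases, Tex101 19, Ccnb3 18, Taf7l 17 and Tktl1 13, against a median of 7 over all windows. The share of all windows with fewer CpGs ran from 62.1% for Tktl1 to 76.9% for Slc25a31. The window of Tex16 held 0 CpGs, and the start it was built on lies 196754 bases inside the edge of the annotated gene.

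Signals are linear intensities with a trimmed mean of 500 on every array, so a value is comparable between arrays for 1 probe set and not between genes. Changes are differences of log2(signal + 31) between stage means, where 31 is the 25th percentile of all ovary values, given with their standard error (SE) and 3 arrays per stage. Changes of genes with low signal are understated on this scale. Tests were made with limma over 26431 probe sets whose mean signal exceeded 116.05, the median of all values, at 1 stage or more. A change was called at a Benjamini-Hochberg adjusted p under 0.05, two-sided. All 6 genes passed that filter, each through the stages at which it was high. Arrays of whole organs cannot tell fewer cells of a type from less RNA per cell.

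**Figure D1:**
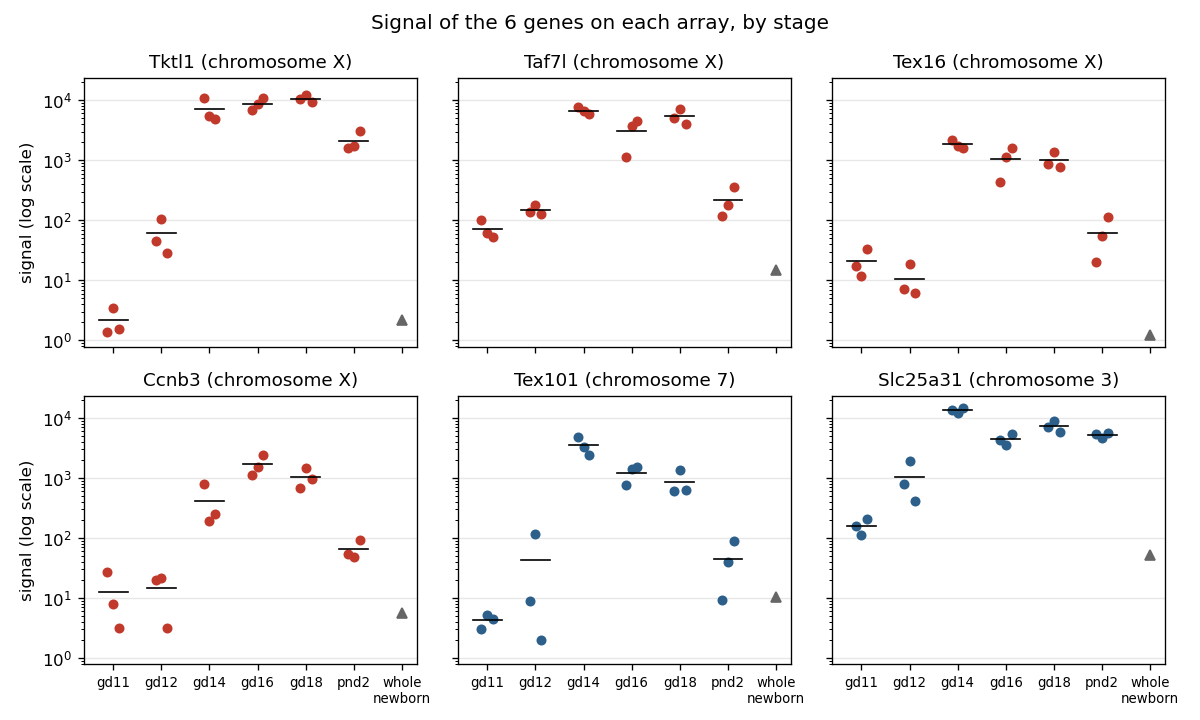
Signal of each gene (log scale, y axis) on the 3 arrays of each stage (points) with the stage mean (bars), and on the single whole-newborn array (triangle), with X-linked genes in red and autosomal genes in blue. All 3 gd14 arrays lie above all gd11 and gd12 arrays for each gene, and at pnd2 only Slc25a31 and Tktl1 keep a mean above 30% of their gd14 mean.

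The transcription factor gene Taf7l read 99.8, 62.3 and 52.6 on gd11 samples 16, 18 and 19 and 137, 182 and 125 on gd12 samples 13, 14 and 15. At gd14 it read 7594, 6715 and 5813 on samples 10, 11 and 12. The step to gd14 was 5.24 ± 0.39 (SE) on the log2 scale, with no overlap between the stages. At gd16 the signal was 1146, 3659 and 4526 on samples 7, 8 and 9, and at gd18 it was 5070.1, 7147 and 4049 on samples 4, 5 and 6. These arrays spread widely, and the gd18 range overlapped those of gd14 and gd16. At pnd2 it was 116, 180.3 and 354 on samples 1, 2 and 3, which is 3.23% of the gd14 mean and overlaps the gd12 range.

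Tktl1, the transketolase relative, read 1.38, 3.52 and 1.54 at gd11, close to the bottom of the scale, and 45.5, 107 and 28.1 at gd12. At gd14 the 3 arrays read 10887, 5426 and 4839.6, and sample 10 stood well above the other two. The step from gd12 to gd14 was 6.28 ± 0.31. Tktl1 was not lower at the next stages, with 6757, 8579 and 10889.8 at gd16 and 10313, 12105 and 9386 at gd18. Its highest mean was that of gd18, 10601 ± 1382 (SD, n = 3), and the ranges of gd14, gd16 and gd18 overlapped from one to the next. At pnd2 the arrays read 1593, 1733 and 3056, below all arrays of gd14 to gd18 and above all of gd12, at 30.2% of the gd14 mean.

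The other probe sets of Tktl1 also had their lowest means at gd11 and gd12 and a lower mean at pnd2 than at gd14. The second read 34.3 ± 5.62 (SD, n = 3) at gd11, 53.9 ± 26.3 at gd12, 3669 ± 2070 at gd14, 6752 ± 2529 at gd16, 5415 ± 1141 at gd18 and 940.5 ± 256 at pnd2. The third was dim throughout and its stage means ran from 8.12 at gd12 to 179.7 at gd18. Its pnd2 arrays overlapped those of gd14, with a change of -0.49 ± 0.32 (SE). The highest stage was thus gd16 by 1 probe set and gd18 by 2.

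Slc25a31, the ADP/ATP carrier, was already measurable at gd11, at 157, 111 and 204. At gd12 it read 786, 1902 and 419, and at gd14 13483, 12206 and 14427, a step of 3.91 ± 0.34. The gd14 arrays lay close together and above every other ovary array. At gd16 the arrays read 4254, 3565 and 5341, at gd18 7117, 8979 and 5806, and at pnd2 5412, 4529.6 and 5514. Slc25a31 thus kept 38.5% of its gd14 mean at pnd2, and the pnd2 range overlapped that of gd16.

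Ccnb3, the cyclin, read 26.8, 8.09 and 3.13 at gd11 and 19.9, 21.5 and 3.19 at gd12, at which levels the order of arrays says little. At gd14 it read 802, 191 and 246. The step to gd14 was 3.04 ± 0.41, the smallest of the 6 on this scale. That rank rested on the 31 added to low signals. With 8 added instead, the step was 4.04 for Ccnb3 and 3.95 for Slc25a31. The step of Ccnb3 on the main scale was 2.46 without gd14 sample 10, whose value was more than 3 times that of each other gd14 array. The gd16 arrays read 1110.1, 1502 and 2413, all above gd14, with a further step of 2.13 ± 0.41. At gd18 the signals were 686, 1444 and 961, which overlapped gd16, and at pnd2 53.1, 47.3 and 93.7, or 15.7% of the gd14 mean. Ccnb3 thus had its highest mean at gd16, where 4 of the other genes were below their gd14 level.

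Tex101, the surface protein gene, read 3.03, 5.17 and 4.54 at gd11 and 9.03, 115 and 1.99 at gd12, where sample 14 alone was high. At gd14 it read 4773, 3309.9 and 2362, a step of 5.87 ± 0.47, or 6.54 without gd12 sample 14. Its gd14 arrays lay above all others. The signal was 768, 1382 and 1514 at gd16 and 607, 1335 and 617 at gd18, ranges that overlapped. At pnd2 it was 9.16, 39.3 and 87.3, which is 1.30% of the gd14 mean, the lowest share of the 6 genes, and overlaps the gd12 range.

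Tex16 read 17.5, 11.8 and 33.1 at gd11 and 7.11, 18.4 and 6.06 at gd12. At gd14 the arrays lay close together at 2138, 1750.25 and 1618, a step of 5.49 ± 0.38. At gd16 they spread from 426 to 1572, with 1126 between, and at gd18 they read 873, 1357 and 784. The gd16 and gd18 means, 1041 ± 577 and 1005 ± 309 (SD, n = 3), did not differ beyond the spread. At pnd2 the signals were 20.2, 53.6 and 113, or 3.38% of the gd14 mean.

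The 6 genes thus shared a low level at gd11 and gd12 and a high one at gd14, which the choice of the genes fixed, and they parted after gd14. By stage mean, 4 genes were highest at gd14, Ccnb3 at gd16 and Tktl1 at gd18. The change from gd14 to gd16 was 0.38 ± 0.31 for Tktl1 and 2.13 ± 0.41 for Ccnb3. It was -1.31 ± 0.39 for Taf7l, -1.49 ± 0.47 for Tex101, -0.97 ± 0.38 for Tex16 and -1.62 ± 0.34 for Slc25a31. From gd18 to pnd2 it ranged from -4.54 ± 0.39 for Taf7l through -3.57 ± 0.47 for Tex101, -3.56 ± 0.38 for Tex16, -3.44 ± 0.41 for Ccnb3 and -2.35 ± 0.31 for Tktl1 to -0.48 ± 0.34 for Slc25a31.

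**Figure D2:**
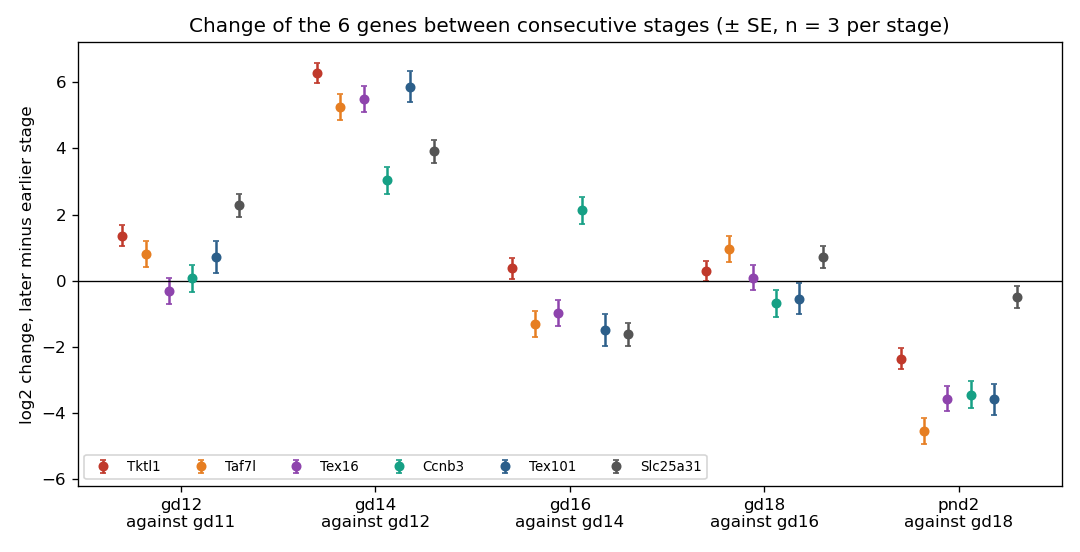
Log2 change of each gene (y axis, later minus earlier stage, points with SE from limma, 3 arrays per stage) for the 5 pairs of consecutive stages (x axis). The changes to gd14 run from 3.04 to 6.28, those from gd14 to gd16 from -1.62 to 2.13, and those from gd18 to pnd2 from -4.54 to -0.48.

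The choice of the genes left 2 comparisons to test, neither of them itself a step it used. The comparison of gd12 with gd11 asked whether any of the genes was higher before the step to gd14. It shares the gd12 arrays with that step, so it is not independent of the choice. Slc25a31 rose by gd12 (2.28 ± 0.34, limma adjusted p = 0.000877), with all 3 gd12 arrays above all gd11 arrays. Tktl1 also passed (1.37 ± 0.31, limma adjusted p = 0.0168). That is 2 of 6 genes higher and 0 lower, beside 4.12% of all probe sets called in this comparison, 3.07% higher and 1.05% lower. The median change was 0.76 over the 6 genes and 0.04 over all probe sets.

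Both stage means of Tktl1, 2.15 and 60.2, lay below 116.05, and it passed the filter only through later stages. The adjusted p of its call was 0.122 without gd12 sample 14 and 0.05 without gd11 sample 16, and 0.286 with a pseudocount of 116. The other probe sets of Tktl1 did not pass (0.33 ± 0.33, limma adjusted p = 0.64, and -0.23 ± 0.32, limma adjusted p = 0.764). With only the 6 arrays of the compared stages in the fit, the limma adjusted p was 0.0847 for Tktl1 and 0.0521 for Slc25a31, and neither gene passed.

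The other 4 genes did not pass between gd11 and gd12. Taf7l differed by 0.82 (95% interval -0.00 to 1.63, limma adjusted p = 0.275), although its 3 gd12 arrays lay above those of gd11. Tex101 differed by 0.71 (-0.28 to 1.71, limma adjusted p = 0.451), Tex16 by -0.31 (-1.11 to 0.49, limma adjusted p = 0.726) and Ccnb3 by 0.08 (-0.77 to 0.93, limma adjusted p = 0.948). Both stage means of Tex101, Tex16 and Ccnb3 lay below 116.05, and these genes passed the filter only through later stages. At such low signals the lack of a call says little. Marker lists moved with this comparison. The summed signal of 5 mesonephros markers was 2001 to 3369.8 at gd11 and 836 to 1534 at gd12, and that of 5 neuron markers 2519 to 19110.2 and 464 to 2709. The summed signal of the 14 germ cell markers was 4202 to 5199 at gd11 and 11155 to 26338 at gd12, and that of 7 granulosa markers 5506 to 5599 and 9737 to 28396. Their part in the result was not tested.

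Within a stage most of the genes were highest on the same array, except at gd11. On gd12 sample 14 all 6 genes had their highest gd12 signal and on sample 15 all 6 their lowest. The same held for the highest array at gd16 (sample 9, 6 of 6), at gd18 (sample 5, 6 of 6) and at pnd2 (sample 3, 6 of 6), and for 5 of 6 genes on gd14 sample 10. The summed signal of 14 germ cell markers, none of them among the 6 genes, was also highest on gd12 sample 14 (26338, against 16930.3 and 11155), on gd16 sample 9 (30708, against 30164 and 24218) and on gd18 sample 5 (59820.4, against 43879 and 37802). At gd14 and pnd2 it went the other way. The highest sum was on gd14 sample 12 (61686), where 4 of the 6 genes had their lowest gd14 signal. At pnd2 it was on sample 1 (46458), where 4 of the 6 had their lowest pnd2 signal. At gd11 no array led, with 2 of 6 genes highest on each.

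The comparison of gd18 with gd16 uses arrays of neither step that chose the genes. It called 0 of 6 genes by limma, beside 7.58% of all probe sets (4.58% higher and 3% lower), and 2 genes had an unadjusted p under 0.05. Those were Taf7l (0.97, 95% interval 0.15 to 1.79, limma adjusted p = 0.14) and Slc25a31 (0.73, 0.02 to 1.43, limma adjusted p = 0.206), both with the higher mean at gd18. Without gd16 sample 7 the change of Taf7l was 0.37 (limma adjusted p = 0.547). Slc25a31 was the only gene of the 6 whose gd18 arrays all lay above its gd16 arrays.

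For the other genes the same comparison gave intervals on both sides of 0. They were -0.35 to 0.95 for Tktl1 (change 0.30), -1.53 to 0.45 for Tex101 (-0.54), -0.71 to 0.89 for Tex16 (0.09) and -1.53 to 0.18 for Ccnb3 (-0.68). The intervals of Tex101 and Ccnb3 thus included falls of more than 1 log2 unit. The median change was 0.19 over the 6 genes and -0.04 over all probe sets.

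One gd16 array stood apart. Xist, the RNA that coats the inactive X chromosome, read 44.8 on gd16 sample 7 and between 11306 and 18576 on the other 17 ovary arrays, although all are labelled female. The Y-linked gene Eif2s3y read 40.2 on that array, above the 29.8 and 33.1 of the other gd16 arrays and the 1.17 to 14.96 of the 15 arrays of other stages. The Y-linked genes Kdm5d and Uty were not highest there. Kdm5d read 64.4 on sample 7 and 84.4 on gd18 sample 4, and Uty read 29.4 on sample 7 and 45.7 on gd12 sample 14. The ratio of the 3' to the 5' control probe set of Gapdh, a measure of RNA and amplification quality, was 5.59 on sample 7, the highest of the 18 ovary arrays, and 4.27 and 4.62 on the other gd16 arrays. Its median signal over all probe sets, 138, was also the highest of the 18. Sample 7 was the lowest gd16 array for 5 of the 6 genes, all but Slc25a31. Its signal was 0.28 of the mean of the other gd16 arrays for Taf7l, 0.316 for Tex16, 0.53 for Tex101, 0.567 for Ccnb3, 0.694 for Tktl1 and 0.955 for Slc25a31. The X-linked genes and the autosomal Tex101 were thus low together.

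Germ cell markers on gd16 sample 7 did not all follow. Ddx4, a helicase of all germ cells, stood at 1.03 of the mean of the other gd16 arrays and the RNA-binding gene Dazl at 0.945, while Mael, of the piRNA pathway, stood at 0.553 and the synaptonemal complex gene Sycp3 at 0.579. Over 772 X-linked probe sets the median deviation of sample 7 from the stage mean was -0.06 on the log2 scale, and over 21339 autosomal ones it was 0.01. Without this array the change from gd14 to gd16 was -0.71 ± 0.32 for Taf7l and -0.45 ± 0.34 for Tex16, in place of -1.31 and -0.97. Without it Tex16 differed between gd16 and gd18 by -0.43 (limma adjusted p = 0.502), in place of 0.09. What set the array apart, and the part of the Gapdh ratio in its low signals, was not tested.

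**Figure D3:**
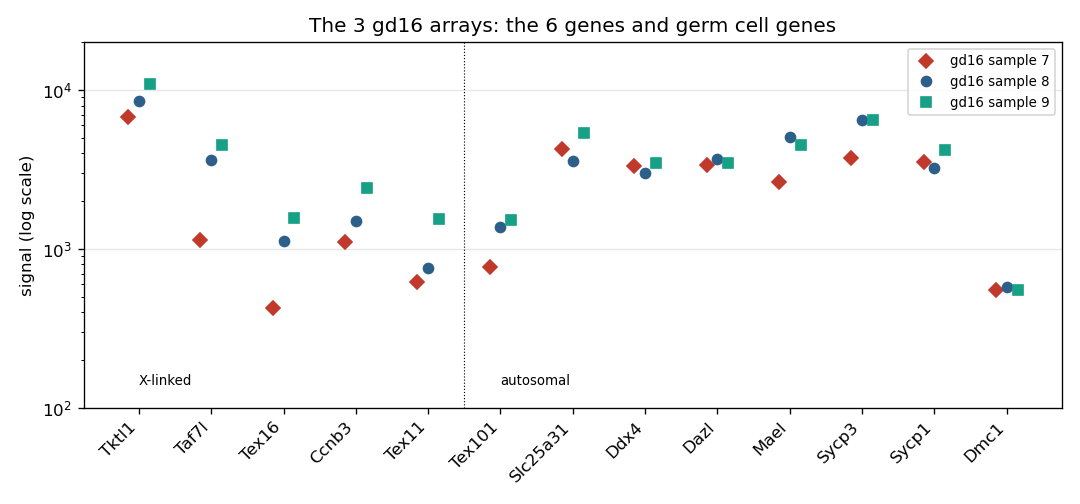
Signal (log scale, y axis) on the 3 gd16 arrays for the 6 genes and 7 germ cell genes, X-linked on the left of the dotted line and autosomal on the right. Sample 7 (diamonds) is lowest for 5 of the 6 genes, with Taf7l at 1146 against 3659 and 4526, while Ddx4 and Dmc1 lie close together on the 3 arrays.

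Germ cell and oocyte markers also differed between stages. The summed signal of the 14 germ cell markers lay between 4202 and 5199 on the gd11 arrays and between 53156 and 61686 on the gd14 arrays. On the gd16 arrays it lay between 24218 and 30708, on those of gd18 between 37802 and 59820.4, and on those of pnd2 between 37548 and 46458. That of 12 oocyte and follicle markers lay between 842 and 1088 at gd14, between 7785 and 15185 at gd18 and between 49619 and 68173 at pnd2. Their part in the levels of the 6 genes was not tested. Relative to its own gd14 mean, Ddx4 kept 34.2% at pnd2, Dazl 28.2% and the synaptonemal complex gene Sycp1 37.8%. Dmc1, the meiotic recombinase, kept 6.39% and Stra8, which starts meiosis, 1.76%, after a rise from 67.9 at gd12 to 2990.45 at gd14 (5.12 ± 0.47, limma adjusted p = 4.41e-07), while Sycp3 kept 90.5%. The receptor gene Kit stood at 815% and Tdrd9, of the piRNA pathway, at 1233% of their gd14 means. The markers thus spread widely, and the 6 genes stood at 38.5% for Slc25a31, 30.2% for Tktl1, 15.7% for Ccnb3, 3.38% for Tex16, 3.23% for Taf7l and 1.30% for Tex101. These shares are set side by side with no test, since the choice of the genes used them.

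The relatives and partners of the 6 genes were counted by list. Of 73 listed relatives and partners, 63 had a probe set of their own and 49 were tested. The lists were drawn up with earlier results of these data known. Of the 49, 14 rose and 10 fell from gd12 to gd14, beside 9.42% and 7.05% of all probe sets. From gd11 to gd12, 4 rose and 0 fell, beside 3.07% and 1.05%, and from gd16 to gd18, 1 rose and 3 fell, beside 4.58% and 3%. From gd14 to gd16, 1 rose and 8 fell, beside 9.68% and 9.1%. From gd18 to pnd2, 10 rose and 4 fell, beside 6.6% and 6.39%. The shares of each step also stand beside the counts of single lists below.

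Of 15 tested TFIID subunits and TBP relatives, the partners of the TAF7 family, 8 rose and 1 fell at gd14. Of all probe sets, 9.42% rose and 7.05% fell. The median change was 0.50 for the 15 and -0.04 for all probe sets. Taf4b, a subunit known from germ cells and the ovary, rose from 564 ± 162 to 2781 ± 379 (2.27 ± 0.24, limma adjusted p = 2.64e-06). Taf9b rose by 1.78 ± 0.25 (limma adjusted p = 6.56e-05) and Taf3 by 1.20 ± 0.20 (limma adjusted p = 0.000346). Taf7 itself, the widely expressed relative of Taf7l, rose from 147 ± 33.5 to 333 ± 76.4 (1.03 ± 0.25, limma adjusted p = 0.00875). Its call was lost without gd14 sample 10 or gd12 sample 15, with an adjusted p of at most 0.055.

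After gd14 the course of Taf7 differed from that of Taf7l. Taf7 read 409 ± 127 at pnd2, its highest stage mean, where Taf7l stood at 3.23% of its own gd14 mean. At gd16, 3 of the 15 were lower, Taf3, Taf11 and Taf1, beside 9.1% of all probe sets. At pnd2 only Taf9b was lower than at gd18 (-1.80 ± 0.25, limma adjusted p = 0.000107), beside 6.39% of all probe sets.

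Of 6 tested genes of transketolase and the pentose phosphate pathway, 0 rose and 1 fell at gd14 (all probe sets 9.42% and 7.05%). The one that fell was Tkt, the transketolase of most tissues. It read 12412 ± 1659 at gd11, 20247 ± 2331 at gd12 and 12569 ± 2021 at gd14, a change of -0.69 ± 0.19 (limma adjusted p = 0.0177). That call was lost without gd14 sample 10 or 12 or gd12 sample 14. The rise of Tkt from gd11 to gd12 (0.71 ± 0.19, limma adjusted p = 0.0428) was lost in 10 of 16 alternatives, among them leaving out any 1 of the 6 arrays. Tktl2, the other relative, had no stage mean above 53.9 and was not tested.

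Of 5 tested mitochondrial carriers of adenine nucleotides, 1 rose and 3 fell at gd14, beside 9.42% and 7.05% of all probe sets. Slc25a4, the ADP/ATP carrier of heart and muscle, fell from 11677 ± 702 to 8363 ± 508 (-0.48 ± 0.12, limma adjusted p = 0.0107), and not without gd12 sample 13 (limma adjusted p = 0.0555). Slc25a5, the carrier of most dividing cells, fell from 7235 ± 453 to 4886 ± 350.3 (-0.56 ± 0.14, limma adjusted p = 0.0078). Slc25a24 fell by 0.80 ± 0.16 on the log2 scale and Slc25a42 rose by 0.68 ± 0.18. The call of Slc25a42 was lost without gd14 sample 12 or gd12 sample 13 or 15, with an adjusted p of at most 0.0633. At gd18 Slc25a5 was lower than at gd16 (-0.73 ± 0.14, limma adjusted p = 0.00314) and at pnd2 higher than at gd18 (0.88 ± 0.14, limma adjusted p = 0.000288).

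Of 16 tested cyclins and partners, 1 rose and 5 fell at gd14, beside 9.42% and 7.05% of all probe sets. The one that rose was Ccnb1ip1, a ligase of meiotic crossing over, from 420 to 2957 (2.78 ± 0.21, limma adjusted p = 3.78e-08). Those that fell were Ccnb2, the cyclin next to Ccnb3 in name (-0.44 ± 0.14, limma adjusted p = 0.0343), Ccna2, Cdk1, Cdc20 and Cdc25c, all of the mitotic cycle. The call of Ccnb2 was lost in 6 of 15 alternatives, among them leaving out gd14 sample 10 or 11 or any gd12 array. Those of Ccna2 and Cdk1 were each lost in 3 and that of Cdc25c in 4 of 15, in each case on leaving out single arrays, among them gd12 sample 13 or 15.

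At pnd2, 7 of the 16 were higher than at gd18 and 1 lower, beside 6.6% and 6.39% of all probe sets. The oocyte kinase Wee2 rose from 51.3 to 1464 (4.19 ± 0.30, limma adjusted p = 7.46e-08) and the APC/C activator Fzr1 by 1.21 ± 0.23 (limma adjusted p = 0.00182), while Ccnb1ip1 fell (-1.33 ± 0.21, limma adjusted p = 0.000355). Ccnb3 stood at its lowest level since gd12 at that stage.

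Beside 9.42% higher and 7.05% lower over all probe sets, 0 of 7 tested TEX101 partners and LY6 relatives fell at gd14 and 4 rose. They were Lypd4 (2.75 ± 0.33, limma adjusted p = 1.29e-05), the TEX101-associated dipeptidase gene Dpep3 (1.57 ± 0.34, limma adjusted p = 0.0038), Ly6k, whose protein partners TEX101 on mouse sperm (1.34 ± 0.30, limma adjusted p = 0.00499), and Ly6e (0.60 ± 0.18, limma adjusted p = 0.0306). The call of Ly6e was lost in 5 of 15 alternatives, among them leaving out gd14 sample 10 or 11 or gd12 sample 13 or 15. Lypd4 read 11.8 at gd12, 252 at gd14 and 29.7 at pnd2. Ly6k was highest at gd18, at 193 ± 24.1, and Dpep3 at pnd2, at 268 ± 112, the stage at which Tex101 was near its gd12 level. Dpep3 and Ly6k did not exceed a mean of 116.05 at gd14, so these signals are dim.

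**Figure D4:**
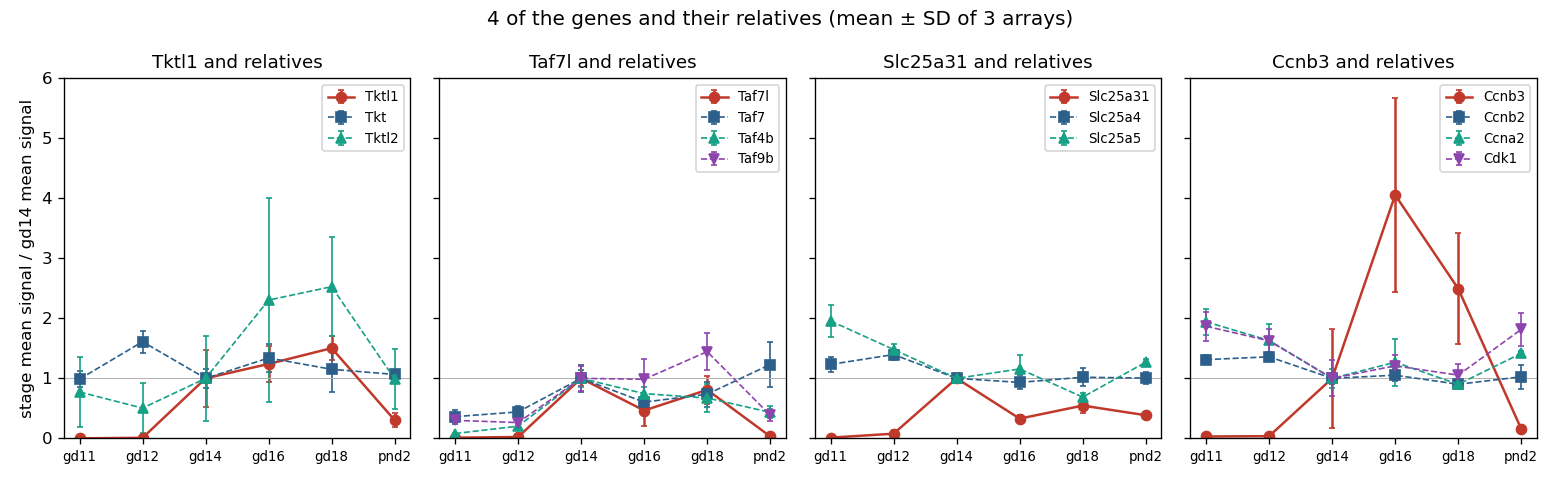
Stage mean signal divided by the gd14 mean of the same probe set (y axis, mean ± SD of 3 arrays) over the 6 stages for 4 of the genes (red) and relatives. Taf7l, Tktl1, Slc25a31 and Ccnb3 lie near 0 at gd11 and gd12, whereas Tkt, Slc25a4, Slc25a5, Ccnb2, Ccna2 and Cdk1 lie near or above their gd14 level there. Taf7, Taf4b and Taf9b, the relatives drawn with Taf7l, lie below their gd14 level at gd12. Tktl2 is dim at all stages.

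The share of chromosome X among the 6 genes, 4 of 6, can be set beside 3.55% of the 12550 tested genes with a known chromosome. Without the 6 genes, 90 of 1448 genes (6.22%) that were called higher at gd14 than at gd12 lay on X. Among those also called lower at pnd2 than at gd14, the count was 44 of 615 (7.15%). With a rise over 2 and a fall over 1 on the log2 scale, thresholds chosen after the values were seen, it was 12 of 96 (12.5%). Among those 12 were Rhox13, a homeobox gene of germ cells, Tex11, a meiotic crossover gene, Scml2 and Fmr1nb. These shares are a description and no test was made of them.

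A list of 22 X-linked germ cell genes had 11 tested genes. Of these, 6 rose and 0 fell at gd14, beside 9.42% and 7.05% of all probe sets. At gd16, 1 rose and 6 fell, beside 9.68% and 9.1%. Rhox13 rose from 149 to 6289 (5.45 ± 0.45, limma adjusted p = 1.16e-07) and read 158 at pnd2, a course like that of Tex16 and Taf7l. Tex11 rose from 82.1 to 2142 (4.32 ± 0.30, limma adjusted p = 1.39e-08) and read 819 at pnd2. At gd12, 8 of the 11 were already higher than at gd11, beside 3.07% of all probe sets, among them Mageb16 (1.84 ± 0.23, limma adjusted p = 0.000188) and Nxf3 (1.96 ± 0.30, limma adjusted p = 0.00117). Of these calls that of Rhox13 held in 8 of 16 alternatives, that of Tex11 in 10 and those of Tex13b and Fmr1nb in 14. Of the 4 X-linked genes of interest, Tktl1 alone passed in that comparison.

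Other genes with a Tex symbol, named like Tex101 and Tex16 for expression in the testis, were mostly below the median signal. Of 33 such genes, 19 had no stage mean above 116.05. At gd14, beside 9.42% higher and 7.05% lower over all probe sets, 8 of the 14 tested rose and 0 fell. They were Tex12, of the synaptonemal complex (5.42 ± 0.24, limma adjusted p = 1.66e-10), Tex11 (4.32 ± 0.30), Tex13b (3.04 ± 0.45), Tex15 (3.03 ± 0.28), Tex14 (2.43 ± 0.31), Tex30 (1.81 ± 0.21), Tex19.2 (1.33 ± 0.25) and Tex10 (0.33 ± 0.11, a call lost in 9 of 15 alternatives). At pnd2, 8 of the 14 were lower and 1 higher than at gd14, beside 15.3% and 14.5% of all probe sets.

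Genes of haploid spermatids were mostly below the median of all values. Of 27 listed, 22 had no stage mean above 116.05, among them the protamine gene Prm2 and the transition protein genes Tnp1 and Tnp2. The 5 above it were tested: Spaca1, Zpbp, Ldhc (highest mean 286 at pnd2), Spata3 (150.2 at gd16) and the protamine gene Prm1 (119 at gd16). The summed signal of the 27 lay between 969 and 1127 at gd11, between 1668 and 1906 at gd14 and between 1800.2 and 2624 at gd18. At gd14, beside 9.42% higher and 7.05% lower over all probe sets, 0 of the 5 tested fell and 2 rose. They were Spaca1, of the acrosome, from 141 to 557 (1.87 ± 0.25, limma adjusted p = 3.35e-05), and Zpbp (1.19 ± 0.31, limma adjusted p = 0.0126). The call of Zpbp was lost without gd14 sample 10 or gd12 sample 13. The Sertoli cell hormone gene Amh had no array above 28.8, but it does not stand for its list. The summed signal of the 9 Sertoli markers lay between 1498 and 3059 at gd11, between 985 and 1428 at gd12 and between 2699.8 and 3099 at pnd2.

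Over the 18 ovary arrays the 6 genes correlated with each other at Pearson r of 0.69 (Slc25a31 with Ccnb3) to 0.98 (Taf7l with Tex16) on the log2 scale. These correlations, and those that follow, are descriptions over arrays of 6 stages that share the step to gd14. Among all tested genes, those most like Taf7l were Tex16 (r = 0.98), Adad1 (0.97) and Btbd18 (0.97). Tex101 was most like Btbd18 (0.98), Adad1 (0.98) and the meiosis gene Meioc (0.97), and Tex16 most like Adad1, Taf7l and Tex101 (0.98, 0.98 and 0.97). Adad1 and Btbd18 are themselves known from the testis.

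The genes with other late courses had other neighbours. Tktl1 was most like Caprin2 (r = 0.99), Sycp1 (0.98) and Lgr5 (0.98), a receptor gene on the granulosa list. Sycp1 read 2305 ± 1136 at gd14, 3825 ± 1254 at gd18 and 872 ± 147 at pnd2. Slc25a31 was most like Syce1 (0.98), Fmr1nb (0.98) and Ddx4 (0.98), and Ccnb3 most like Efcab2 (0.97), the X-linked RNA export gene Nxf2 (0.97) and Glipr1l2 (0.96). The mean profile of the 6 genes was closest to Sycp2, of the synaptonemal complex (r = 0.99), D1Pas1, Tmx4, Mettl4, Pias2 and Btbd18.

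On the whole-newborn array the genes were low. It read 2.21 for Tktl1, 14.8 for Taf7l, 10.4 for Tex101, 1.25 for Tex16, 52.1 for Slc25a31 and 5.67 for Ccnb3. Each of these lay below the pnd2 ovary mean of the gene, which was 2127 for Tktl1 and 5152 for Slc25a31, though Tex101 read 9.16 on 1 pnd2 ovary array. With 1 array the difference has no replicate check.

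The Gapdh ratio also moved with stage. The gd11 arrays lay between 2.99 and 3.28, those of gd14 between 4.09 and 4.96, those of gd16 between 4.27 and 5.59 and those of pnd2 between 5.07 and 5.41. Its part in the levels of the 6 genes was not tested. Under median scaling the median change of all probe sets from gd14 to gd16 was -0.09 in place of 0.08, and from gd11 to gd12 -0.08 in place of 0.04. The share of calls that were rises then went from 51.5% to 20.5% and from 74.6% to 45.9%.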

How the data were processed

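Gene expression was measured on Affymetrix Mouse430_2 arrays in 18 ovary samples and 1 whole-newborn pool, after 2 rounds of amplification per the labels. The deposited values are linear signal intensities that the authors computed using GCOS, per the submitters' processing notes. A 2%-trimmed mean of 500 was found on each array. Version and settings of GCOS were not given in the sources used here. Precision is limited by the number of arrays.

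The probe sets of control sequences (64) were left out. Gene symbols came from the platform annotation, which gave 1 gene for 34945 probe sets, several for 932 and no gene for 9160. Values were taken to log2(signal + 31) and probe sets with a stage mean above 116.05 were fitted in limma 3.58.1 (R 4.3.3; data.table, release 1.17.8) with 1 term per stage, a mean-variance trend and 12 residual degrees of freedom. P-values were adjusted over 26431 probe sets. The fit was tested on simulated arrays.

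The members and the gene lists were chosen with earlier results of these data known. Named were the 6 genes, their relatives, up to 4 called genes with the largest change per list, Tex genes called at gd14, and the genes of highest correlation (3 per gene, 6 for the mean). Other genes were named after their values were seen: Scml2, the germ cell and spermatid genes, Amh, Xist, Eif2s3y and genes given for sample 7. Alternatives covered the pseudocount (8 or 116), scaling, filter (none or 507.26), the arrays fitted, the trend, array weights, gd11 samples 18 and 19 averaged, a 2-fold threshold, the mean of a gene's probe sets, and leaving out each array. Promoter windows were searched for exact letters.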

Additional observations from a re-analysis of the deposited data

How the results depend on the processing

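Of the 6 genes, 2 were called higher at gd12 than at gd11. The count was 1 with a pseudocount of 116, where the change of Tktl1 was 0.55 (limma adjusted p = 0.286), and 1 with a gene's probe sets averaged, where it was 0.49 (limma adjusted p = 0.341). It was 0 with only the compared arrays in the fit, and 1 to 2 without 1 array. The count of 0 called genes at gd18 against gd16 was 0 in every alternative run. The direction of Ccnb3 between gd11 and gd12, near 0, turned to -0.029 with gd11 samples 18 and 19 averaged, to -0.0068 without gd12 sample 13, to -0.029 without gd12 sample 14 and to -0.078 without gd11 sample 19, in a range up to 0.30 without 1 array. The direction of Tex16 between gd16 and gd18 turned to -0.14 without gd18 sample 5 and to -0.43 without gd16 sample 7, in a range up to 0.47. The cause was not tested.

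Called probe sets at gd12 against gd11 were 1089, and 438 with only the compared arrays, 688 with samples 18 and 19 averaged, 545 with a 2-fold threshold and 339 to 894 without 1 array (339 without gd12 sample 14 and 629 without gd11 sample 16). At gd18 against gd16 they were 2003, and 898 with only the compared arrays, 530 at 2-fold and 1136 to 1989 without 1 array (1136 without gd18 sample 4, 1177 without gd18 sample 5 and 1156 without gd16 sample 7). The 2-fold threshold left 1643 of 4355 at gd14 against gd12, 1251 of 4965 at gd16 against gd14, 1271 of 3432 at pnd2 against gd18 and 3016 of 7889 at pnd2 against gd14. Without 1 array the ranges were 2604 to 4209 (2702 without gd12 sample 13, 2604 without gd12 sample 15), 2927 to 4450 (2927 without gd14 sample 12), 1822 to 3340 (1822 without pnd2 sample 1, 2163 without gd18 sample 6) and 6150 to 6972.

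Of the relatives and partners, 4 were called at gd12 against gd11, 2 with a gene's probe sets averaged and 1 to 3 without 1 array (1 without gd12 sample 14). At gd14 against gd12 there were 24, 8 at 2-fold and 15 to 21 without 1 array (15 without gd12 sample 13). At gd16 against gd14 there were 9, 2 at 2-fold and 6 to 9 without 1 array. At gd18 against gd16 there were 4, 2 with median scaling, no filter or probe sets averaged, 1 with only the compared arrays or at 2-fold, and 1 to 3 without 1 array. At pnd2 against gd18 there were 14, 6 at 2-fold and 6 to 16 without 1 array (6 without pnd2 sample 1). Of 203 calls of listed genes, 120 held in every alternative in which they were tested, and 0 changed direction. Median scaling also moved the share of rises among calls from 60.5% to 78.7% at gd18 against gd16 and from 50.8% to 62.2% at pnd2 against gd18. No paired analysis was possible because the labels give each sample a number of its own. With groups of 3 arrays, no array was tested as an outlier.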
